A study of Mus musculus with 2 samples.

Results

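The chromatin accessibility of 10 genes of iron handling was compared between livers with and without the RNA methyltransferase METTL3 in hepatocytes. They were the hepcidin genes *Hamp* and *Hamp2*, the genes that sense iron and signal to them (*Bmp6*, *Id1*, *Hfe*, *Tfr2*), the uptake and transport genes *Tfrc* and *Trf*, the storage gene *Fth1* and the export gene *Slc40a1*. A region of open chromatin was assigned to the gene with the closest transcription start site (TSS), and each distinct region was used once. All 10 genes had at least 1 region, and together they had 37 of the 69549 distinct regions. Regions centred within 1 kb of the TSS are called promoter regions. There were 11 promoter regions of these genes among 14387 in all, and 26 other regions among 55162. The closest TSS is a rule of position and does not show which gene a region acts on.

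Open chromatin was measured by ATAC-seq, in which the Tn5 transposase cuts accessible DNA and tags it for sequencing. One library came from *Mettl3* flox/flox livers (flox/flox) and the other from hepatocyte-specific *Mettl3* knockout livers (HKO, *Mettl3* flox/flox *Alb*-Cre+/-), and each pooled 4 mice. All mice were of the C57BL/6 background, were given normal chow and were 8 weeks old, and both groups carried the floxed *Mettl3* alleles. The *Alb* promoter drives Cre in hepatocytes, so the other liver cells of HKO mice should keep *Mettl3*, and *Mettl3* flox/flox mice lack Cre.

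Hepcidin is the liver hormone that limits the entry of iron into the blood. It binds ferroportin, the only known cellular iron exporter, and causes its loss from the cell surface. Hepatocytes raise hepcidin when BMP ligands from the endothelium activate SMAD factors, with HFE, transferrin receptor 2 and hemojuvelin as further parts of the sensor, and also when IL-6 activates STAT3.

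The stretch just upstream of the *Hamp* start is shown because the *Hamp* promoter region covers all of it, and that of *Hamp2* because it is the nearest relative. Both are the 250 bases before the RefSeq start on GRCm38.p6, minus strand, written 5′ to 3′. Capitals mark GGCGCC, the core of the known BMP-responsive element, and TTCNNNGAA, the core bound by STAT factors.
Hamp, chr7:30944030-30944279: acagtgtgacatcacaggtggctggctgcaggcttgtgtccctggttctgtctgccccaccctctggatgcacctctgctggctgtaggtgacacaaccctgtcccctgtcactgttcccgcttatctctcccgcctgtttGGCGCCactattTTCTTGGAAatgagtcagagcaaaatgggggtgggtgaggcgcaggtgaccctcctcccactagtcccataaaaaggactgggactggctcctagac
Hamp2, chr7:30924182-30924431: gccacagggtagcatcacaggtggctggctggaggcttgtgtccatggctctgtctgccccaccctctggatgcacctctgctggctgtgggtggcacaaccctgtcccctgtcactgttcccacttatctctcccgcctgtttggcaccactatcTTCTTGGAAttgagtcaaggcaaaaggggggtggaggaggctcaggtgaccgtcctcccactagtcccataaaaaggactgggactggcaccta

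Of 247 aligned bases, 227 (91.9%) were identical between the *Hamp* and *Hamp2* stretches, and the longest identical run was 40 bases. *Hamp* held GGCGCC from 109 to 104 bases before its start. *Hamp2* had GGCACC at the aligned place, which is the substitution G145A, with positions counted from 1 at the 5′ end of the *Hamp* stretch and the *Hamp* base first. TTCTTGGAA was found in both, from 97 to 89 bases before the *Hamp* start and from 94 to 86 bases before that of *Hamp2*. Both strands were searched, and neither match overlapped the other. Among 32851 RefSeq stretches of the same length, 9.59% held GGCGCC and 7.02% held TTCNNNGAA. A match is a description of the letters, not evidence that a factor was bound.

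RefSeq stretches of this kind were matched for 7 of the 10 genes. GGCGCC was also found for *Tfrc*, from 89 to 84 bases before its start. TGANNNNGC, a core of the antioxidant response element, was found in the stretches of *Hfe* and *Bmp6*, and in 35.2% of all stretches. The E-box CACGTG was found for *Bmp6* (6.02% of all), and TATAAA on the minus strand of 1 *Fth1* stretch (12.4% of all). Neither that *Fth1* stretch nor the *Bmp6* stretch had a base inside a region of the table. None of these motifs was found in the 3 stretches of *Tfr2*. The stretch shown lies before a RefSeq start inside the first intron and wholly within the region that had the lowest ratio among these genes.
Tfr2, chr5:137570470-137570719, plus strand: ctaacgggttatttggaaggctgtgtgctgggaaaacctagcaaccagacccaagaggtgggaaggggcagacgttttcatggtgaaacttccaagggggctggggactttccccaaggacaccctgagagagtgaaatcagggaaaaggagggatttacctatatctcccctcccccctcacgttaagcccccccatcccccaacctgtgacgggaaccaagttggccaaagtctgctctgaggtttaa

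The authors scaled counts to about 52800000 reads for flox/flox and 58000000 for HKO, and 31.7% and 22.3% of these lay in the regions. The log2 ratio given throughout is *Mettl3*-HKO over *Mettl3* flox/flox, from the count with 1 read added, per library total. The median log2 ratio was −0.56 for all promoter regions and −0.27 for all other regions. Ratios also moved with signal: for promoter regions the median was −0.11 in the lowest quartile of mean signal and −0.64 in the highest, and for other regions it was 0.47 and −0.62. Each ratio is followed by its exact (Clopper-Pearson) 95% counting interval. With 1 pooled library per group there was no replicate check and no test across mice, and the interval covers counting error only. Duplicate reads were kept for peak calling, and whether the counts hold them is not given in the sources used here. The promoter of *Mettl3* itself had 566 counts in flox/flox and 392 in HKO (log2 ratio −0.66), which does not check the genotype.

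*Hamp* encodes hepcidin. Its promoter region lay at chr7:30943803-30944467, over the TSS, with 311 counts in flox/flox and 610 in HKO. Scaled to library size (RPM), this was 5.91 and 10.5, a log2 ratio of 0.83 (0.64 to 1.04), or 1.78-fold. The *Hamp* promoter was thus higher in HKO while most promoter regions were lower, and 719 of the 14387 promoter regions had a higher log2 ratio. Strong promoter regions seldom had such a ratio: of the 5594 with at least its mean RPM, itself included, 2 had a higher one. These were a region of *Tctex1d4*, with 358 and 796 counts, and one beside *Jun* at an unnamed gene, with 721 and 2031 counts.

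**Figure D1:**
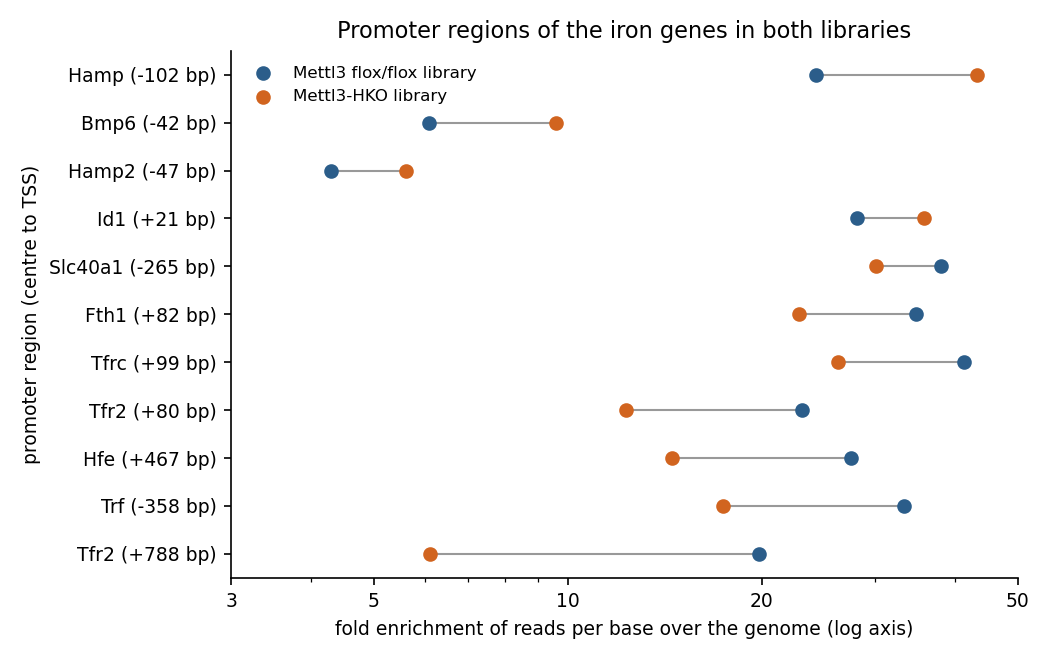
Fold enrichment of reads per base in each promoter region over reads per base in the genome (log axis), for the flox/flox library (blue) and the HKO library (orange), 1 pooled library each, ordered by ratio. The *Hamp* region went from 24.3 to 43.2, while the lower 7 regions all had less enrichment in HKO.

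Per base, the *Hamp* promoter was not among the most open of these genes in flox/flox. Its enrichment over the genome was 24.3-fold (21.7 to 27.1, exact Poisson), and 6 of the 10 other promoter regions were above it, led by *Tfrc* at 41.2-fold. Its interval overlapped those of *Id1*, *Hfe* and both *Tfr2* regions there. In the HKO library it was 43.2-fold (39.8 to 46.8), above the other 10, with *Id1* next at 35.7-fold (31.8 to 40.0), whose interval overlapped that of *Hamp*. The plot of promoter enrichment shows this exchange of places.

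The largest signal gain at *Hamp* lay at the other end of the gene. A region of 1286 bp at chr7:30941111-30942396 began 29 bp inside the 3′ end of *Hamp* and ran past it, its centre 2279 bp downstream of the TSS. It had 191 counts in flox/flox, where no peak was called, and 870 in HKO, where one was. The log2 ratio was 2.05 (1.82 to 2.29), or 4.13-fold, with RPM of 3.63 and 15.0. Of the 2489 other regions with at least its mean RPM, itself included, it had the highest log2 ratio. Regions whose peak was called in HKO alone entered the table through the library where they were high, and 54.4% of the 13720 such regions outside promoters were at least 2-fold higher, against 3.76% of those with a peak in both. The region also lies in the last intron of an unnamed gene, ENSMUSG00000108546, as do the other *Hamp* and *Hamp2* regions, and ATAC-seq reads carry no strand that could part them.

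Another *Hamp* region went the other way. It lay 1567 bp upstream, at chr7:30945400-30945800 in the 3′ untranslated end of *Usf2*, and had 304 counts in flox/flox and 202 in HKO. Its log2 ratio was −0.72 (−0.99 to −0.46). Within 50 kb of the *Hamp* TSS there were 8 regions assigned to genes other than *Hamp* and *Hamp2*. Their log2 ratios ran from −0.52 to 0.62 with a median of −0.02, and 4 were above 0. *Usf2*, which encodes a transcription factor, had 1767 and 1615 counts at its promoter (log2 ratio −0.27). The ratio of the *Hamp* promoter and that of its 3′ region lay above all 8, though the interval of the promoter overlapped that of the highest (0.32 to 0.93).

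**Figure D2:**
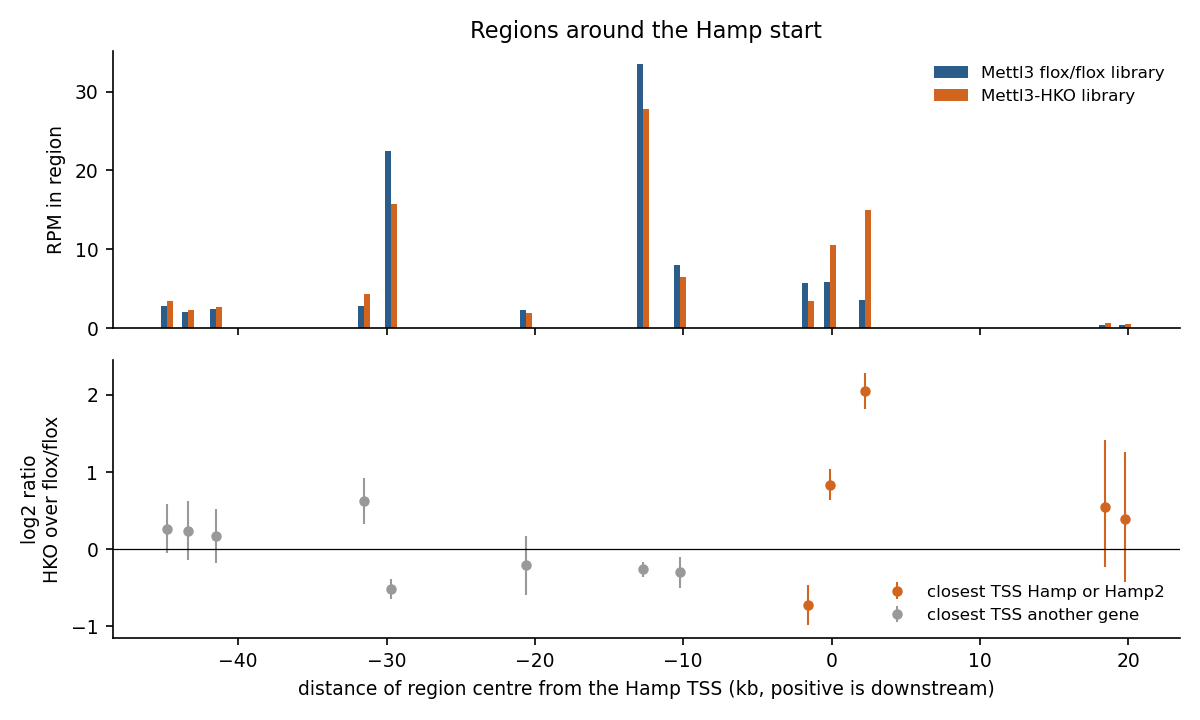
Regions by distance of their centre from the *Hamp* TSS (kb, positive is downstream): top, RPM in the *Mettl3* flox/flox (blue) and *Mettl3*-HKO (orange) libraries; bottom, log2 ratio with its 95% counting interval, orange for regions of *Hamp* and *Hamp2* and grey for other genes. The regions at the *Hamp* start (0.83) and past its end (2.05) stand above the 8 grey regions, which run from −0.52 to 0.62.

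*Hamp2* is a copy of *Hamp* that mice carry beside it. Both of its regions were weak and had a peak in HKO only. The promoter region had 22 counts in flox/flox and 32 in HKO, a log2 ratio of 0.39 (−0.42 to 1.26). A region 1427 bp upstream had 22 and 36 counts, a log2 ratio of 0.55 (−0.23 to 1.41). No difference was detectable at this depth, and the ratios of the *Hamp* and *Hamp2* promoters had overlapping intervals. Whether reads were shared between the copies was not tested, and the counts of both genes are uncertain to that extent.

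*Bmp6* encodes the BMP ligand that liver endothelial cells release when iron is high. Its promoter region was weak, with 29 counts in flox/flox and 51 in HKO, a log2 ratio of 0.66 (−0.01 to 1.39). The first intron held 5 further regions. The strongest, 19331 bp past the TSS at chr13:38364166-38364711, had 35 and 202 counts, a log2 ratio of 2.36 (1.87 to 2.95), or 5.13-fold. It was at the 98.28th percentile of all other regions, and at the 98.79th among those in its quartile of signal.

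The remaining *Bmp6* intron regions were weaker or changed less. The region at 8878 bp had 16 and 56 counts (log2 ratio 1.61, 0.85 to 2.57) and that at 38524 bp had 12 and 36 (1.37, 0.47 to 2.53). The region at 32395 bp had 10 and 20 counts, and its interval held 0 (0.80, −0.30 to 2.12). The region at 7074 bp had 80 and 87 counts and did not differ beyond counting error (−0.02, −0.47 to 0.44). Thus 3 of the 5 intron regions were at least 2-fold higher in HKO, as were 15.6% of all other regions. Those at 8878 bp and 38524 bp had a peak in HKO alone, so that a higher ratio was partly fixed by the peak call, while that at 19331 bp had one in both libraries. The weaker 2 lay in the lowest quartile of signal, where the median log2 ratio was 0.47, and were at its 84.49th and 78.48th percentiles. Another 2 regions inside *Bmp6* were closest to the TSS of other, unnamed genes. One in the first intron had 29 and 48 counts (0.57), and one in the fourth intron had 135 and 113 (−0.39).

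Promoter regions of markers of endothelial cells, the known source of BMP6 in liver, were mostly higher in HKO as well. Of 8 endothelial markers, 7 had a promoter region, and 5 of these were at least 2-fold higher in HKO, as were 4.07% of all promoter regions. All 5 had a peak in HKO alone, as did 1208 promoter regions in all, of which 41.1% were at least 2-fold higher. All 7 lay in the lowest quartile of signal. The log2 ratios ran from 0.14 to 1.78, and their median was 1.60. *Stab2* had 13 and 52 counts, *Kdr* 25 and 89, *Lyve1* 14 and 55, *Cdh5* 19 and 58, and *Tek* 11 and 39. *Clec4g* had 48 and 79 counts and *Eng* 23 and 28. *Pecam1* had no promoter region, and no marker that had one was at 0. Their summed level was 3.03 RPM in flox/flox and 7.01 in HKO, against 89.8 and 58.3 for the 10 promoter regions of 8 hepatocyte markers, whose median log2 ratio was −0.81. The 24 other regions of the 8 endothelial markers were more mixed. Their median log2 ratio was 0.82, and they summed to 30.4 RPM in flox/flox and 34.9 in HKO. Of the 24, 2 were at least 2-fold lower and 11 at least 2-fold higher, beside 18.8% and 15.6% of all other regions. Regions with a peak in HKO alone were not left out of these counts, and 54.4% of such other regions were at least 2-fold higher. The strongest in flox/flox, 24930 bp upstream of *Stab2*, had 527 and 256 counts (−1.17). In pooled tissue, more cells of a type and more open chromatin per cell cannot be told apart. The part of endothelial nuclei in the *Bmp6* values was not tested.

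*Id1* is a target gene of BMP and SMAD signalling, and its product blocks other transcription factors. Its promoter region, over the TSS, had 215 counts in flox/flox and 301 in HKO, a log2 ratio of 0.35 (0.09 to 0.61). This lay above 0 and below the *Hamp* interval, and was at the 93.49th percentile of the promoter regions in its quartile of signal. The region 1093 bp upstream, just outside the limit for a promoter, had 243 and 303 counts (0.18, −0.07 to 0.43). The promoter region nearest to the limit on the inner side was that of *Tfr2* at 788 bp (−1.69). The other *Id1* regions had 25 and 40 counts (0.52) at 7859 bp upstream, and 664 and 518 (−0.49) at 3282 bp downstream.

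*Hfe* encodes a partner of the transferrin receptors that is mutated in hereditary haemochromatosis. Its only region, of 1232 bp over the TSS and centred in the first intron, had 655 counts in flox/flox and 378 in HKO. The log2 ratio was −0.93 (−1.12 to −0.74), at the 20.17th percentile of all promoter regions.

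*Tfr2* encodes transferrin receptor 2, the iron sensor of hepatocytes, and all 4 of its regions were lower in HKO with intervals below 0. Intervals also lay below 0 for 72.4% of all promoter regions and 42.5% of all other regions. The region over the TSS had 229 and 133 counts, a log2 ratio of −0.92 (−1.24 to −0.61). The lowest ratio of all 37 regions was that of the first intron, at chr5:137570345-137570913, with 217 and 73 counts. Its log2 ratio was −1.69 (−2.11 to −1.32), at the 1.74th percentile of all promoter regions. Further in, the region at the third exon had 107 and 58 counts (−1.01) and that in the eleventh intron 352 and 174 (−1.15). All 4 ratios were lower than the median of their kind of region. Promoter regions of hepatocyte markers were lower as well, 9 of 10 below 0 with a median log2 ratio of −0.81. Among all 14387 promoter regions, 12073 were below 0 and the median was −0.56. The part of hepatocyte nuclei in the *Tfr2*, *Hfe* and *Trf* values was not tested.

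The uptake genes had lower promoter regions near or below the median of all promoters. *Tfrc* encodes transferrin receptor 1, through which most cells take up iron, and its only region had 755 counts in flox/flox and 529 in HKO. The log2 ratio was −0.65 (−0.81 to −0.49), at the 41.57th percentile. *Trf* encodes transferrin, the iron carrier of the blood made by hepatocytes. Its promoter region, 358 bp upstream of the TSS, had 128 and 73 counts (−0.94, −1.38 to −0.52).

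The region over the start of *Trf* was assigned to an overlapping gene, *Gm20425*, whose TSS is closer. It lay at chr9:103230109-103230576 and had 447 and 317 counts, a log2 ratio of −0.63 (−0.84 to −0.42). A region in the first intron of *Trf*, also assigned to *Gm20425*, had 133 and 95 counts (−0.62). Upstream of *Trf* were 6 other regions with log2 ratios from −0.98 to 0.02. Of these, 3 had intervals below 0 and none above, beside 42.5% and 24.5% of all other regions. Adding the region over the *Trf* start, chosen after the values were seen, gave the promoter regions of these genes a median of −0.62 in place of −0.60.

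*Fth1* encodes the heavy chain of ferritin, which stores iron. Its promoter region had 588 counts in flox/flox and 426 in HKO, a log2 ratio of −0.60 (−0.78 to −0.42), close to the median of all promoters. The 5 regions upstream were mixed. Those at 27925 bp (440 and 213 counts, −1.18) and 3900 bp (350 and 191, −1.01) were at least 2-fold lower. The region at 5444 bp had 52 and 87 counts (0.60, 0.09 to 1.13), and those at 14368 bp and 7561 bp had intervals that held 0.

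*Slc40a1* encodes ferroportin, the exporter that hepcidin acts on. Its promoter region had 568 counts in flox/flox and 494 in HKO, a log2 ratio of −0.34 (−0.51 to −0.16), at the 69.37th percentile. The region in the third intron had 549 and 547 counts and did not differ beyond counting error (−0.14, −0.31 to 0.03). A weak region 10353 bp upstream, at chr1:45935759-45936167, had 8 counts in flox/flox and 47 in HKO, a log2 ratio of 2.28 (1.32 to 3.71). Its peak was called in HKO alone, which favoured a higher ratio in advance.

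Ferroportin is abundant in liver macrophages. Of 8 macrophage markers, 2 had promoter regions (*Cd14*, with 2, and *C1qa*). Their 3 regions had a median log2 ratio of 1.07 and summed to 1.65 RPM in flox/flox and 3.24 in HKO. None of the 3 was at 0, and *C1qa* had 8 and 40 counts. *Clec4f*, *Adgre1*, *Csf1r* and *Marco* had no promoter region, and *Cd68* and *Vsig4* were not named in the table. The 9 other regions of 5 markers went both ways, with a median log2 ratio of 0.10 and 4 below 0, and summed to 16.9 RPM in flox/flox and 9.27 in HKO. A region upstream of *Marco*, with 457 and 7 counts, set the direction of that sum, and without it the other 8 summed to 8.19 RPM in flox/flox and 9.13 in HKO. The part of macrophage nuclei in the *Slc40a1* values was not tested.

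**Figure D3:**
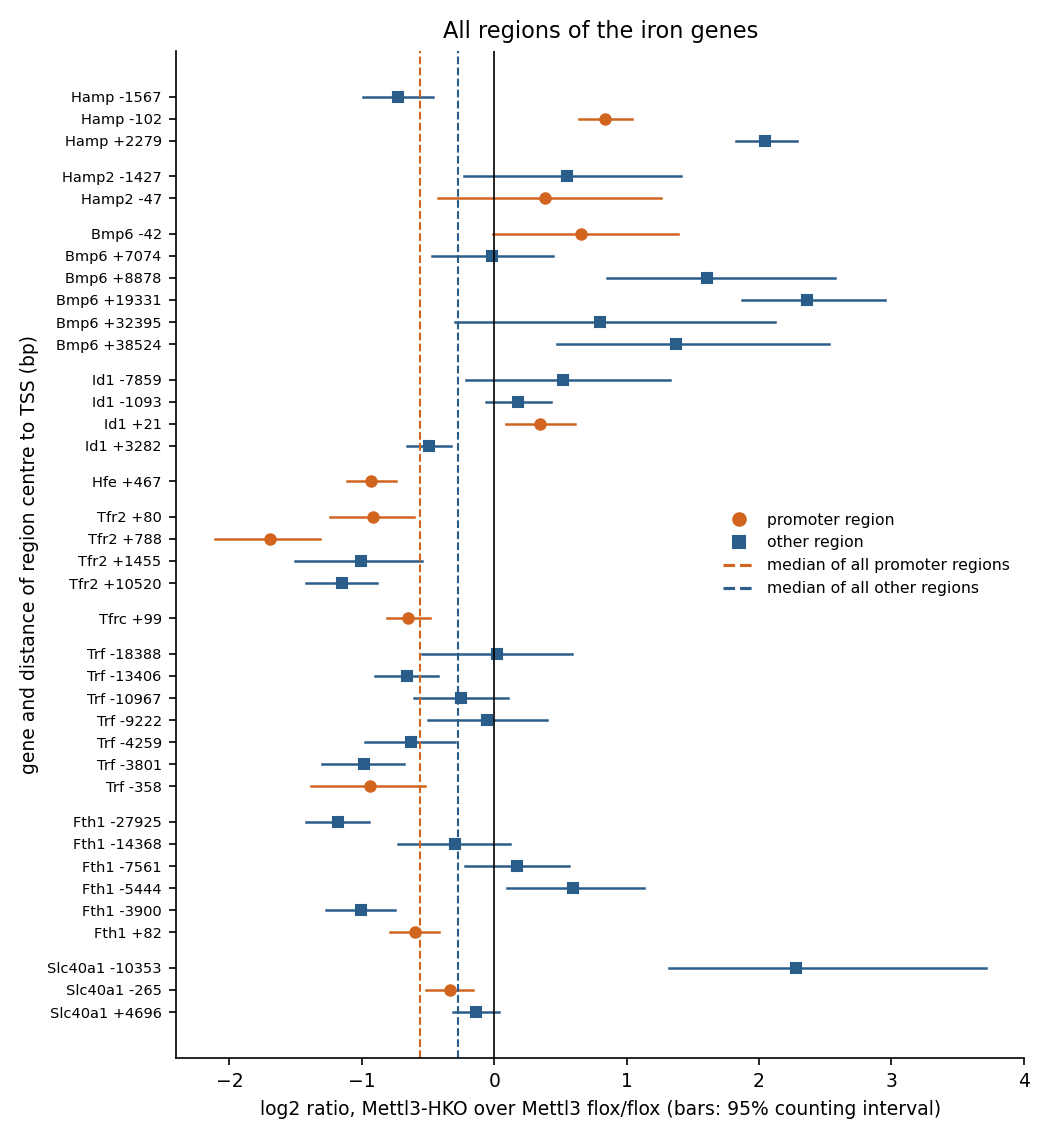
Log2 ratio of each of the 37 regions, grouped by gene and named by the distance of the centre from the TSS (bp), with 95% counting intervals; orange circles are promoter regions, blue squares other regions, and dashed lines the medians of all promoter (−0.56) and all other (−0.27) regions. *Tfr2* lies to the left in all 4 regions, and the first intron of *Bmp6* and the 3′ region of *Hamp* lie furthest to the right together with the upstream region of *Slc40a1*.

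Counted together, none of the 11 promoter regions was at least 2-fold higher in HKO, beside 4.07% of all promoter regions, and 1 (*Tfr2*) was at least 2-fold lower, beside 16.3%. Centring on the median of all regions adds 0.38 to every log2 ratio. After it, 2 (*Hamp* and *Bmp6*) were at least 2-fold higher, beside 6.9%, and the same *Tfr2* region was lower, beside 5%. Intervals lay above 0 for 2 regions (*Hamp* and *Id1*), beside 8.08%, and below 0 for 7, beside 72.4%. The median log2 ratio of the 11 was −0.60, against −0.56 for all promoter regions. With 11 regions these counts are too few to tell a share from the background. The 3 other scalings of the libraries add 0.38, 0.65 or 0.51 to every log2 ratio, so a ratio above 0 could not change sign. This held for the promoter ratios of *Hamp*, *Hamp2*, *Bmp6* and *Id1*, and on the authors' scale the intervals of *Hamp2* and *Bmp6* held 0. The promoter ratios of *Hfe*, *Tfr2*, *Trf* and *Tfrc* stayed below 0 under each of the 3, with *Tfrc* coming as near to 0 as −0.0021. That of *Slc40a1* turned positive under all 3 (0.04 to 0.31) and that of *Fth1* under 1 of them (0.05).

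Of the 26 other regions, which belonged to 8 of the genes, 5 were at least 2-fold higher, beside 15.6% of all other regions, and 4 at least 2-fold lower, beside 18.8%. The 5 were the 3′ region of *Hamp*, 3 in the first intron of *Bmp6* and the upstream region of *Slc40a1*, and 4 of them, all but the strongest in *Bmp6*, had a peak in HKO alone. The 4 were 2 of *Tfr2* and 2 of *Fth1*. After centring, 6 were higher, beside 23.5%, and 0 lower, beside 8.65%. Intervals lay above 0 for 6, beside 24.5%, and below 0 for 9, beside 42.5%. Their median log2 ratio was −0.03, against −0.27. It was −0.40 over the 16 of them in the upper 50% of signal among all regions.

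**Figure D4:**
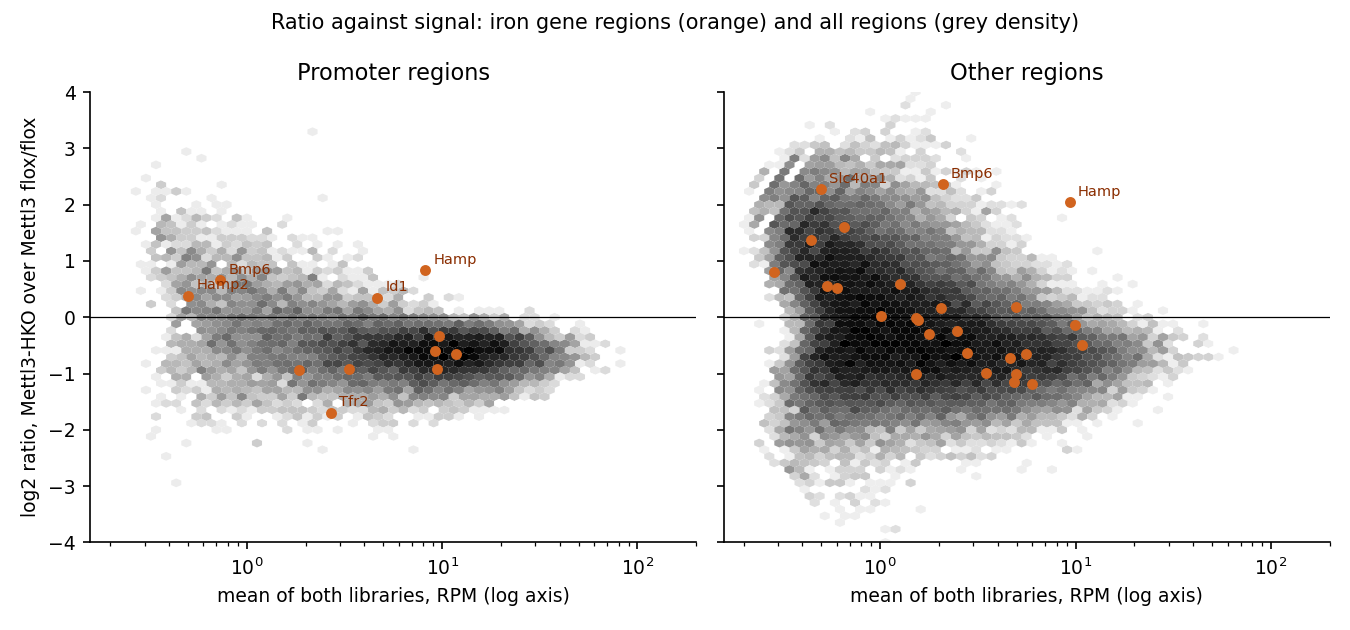
Log2 ratio against the mean RPM of both libraries (log axis) for promoter regions (left) and other regions (right); grey shading is the density of all regions on a log scale and orange points are the 37 regions of the iron genes, some named. The *Hamp* points, at 0.83 and 2.05, sit at the upper edge of the grey cloud at their signal, whereas the upstream *Slc40a1* region (2.28) lies within the spread of weak regions.

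A wider list of 67 other genes of iron and haem handling mostly had ratios near those of all promoters. Of these genes 62 were named in the table and 55 had a promoter region, giving 63 regions. Of the 63, 8 were at least 2-fold lower and 1 was at least 2-fold higher, to be read beside the same 16.3% and 4.07% of all promoter regions. The median log2 ratio was −0.64.

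The 1 higher gene was *Bmp2*, which encodes the other endothelial ligand upstream of hepcidin. Its promoter had 95 counts in flox/flox and 253 in HKO, a log2 ratio of 1.27 (0.93 to 1.63). Its 5 other regions had log2 ratios from 0.10 to 1.45. The part of endothelial nuclei, whose marker values are given beside *Bmp6*, was not tested here either.

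Among the other genes of BMP and SMAD signalling, 2 were at least 2-fold lower. *Tmprss6*, a protease that cuts hemojuvelin, had 412 and 213 counts (−1.08), and *Hjv*, which encodes hemojuvelin, had 427 and 232 (−1.01) at the stronger of its 2 promoter regions. *Smad6*, an inhibitor induced by the pathway, had 1171 and 703 counts (−0.87), and *Smad7* had no promoter region. The 19 promoter regions of this group had a median log2 ratio of −0.66. In the IL-6 and STAT3 group the 4 regions had a median of −0.61, *Stat3* itself with 1186 and 827 counts (−0.66), and *Il6ra* was not named in the table.

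The group of uptake, export and oxidation genes had the lowest median, −1.05 over 8 regions of 7 genes. Of the 8, 4 were at least 2-fold lower, beside 16.3% of all promoter regions. After centring on all regions none of the 8 was, beside 5%. Among the 10 promoter regions of hepatocyte markers the median was −0.81 and 2 were at least 2-fold lower, beside the same 16.3%. The part of hepatocyte nuclei in the values of the uptake, export and oxidation group was not tested. *Slc39a14*, a carrier for iron not bound to transferrin, had 592 and 295 counts (−1.14), and its 6 other regions ran from −1.84 to −0.72. *Slc46a1* had 262 and 131 counts (−1.13). The metalloreductases *Steap4* (942 and 399, −1.37) and *Steap2* (656 and 325, −1.15) were lower too. *Cp*, the ferroxidase ceruloplasmin, was higher in HKO, with 268 and 393 counts, a log2 ratio of 0.41 (0.19 to 0.65).

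The remaining groups stayed nearer to the median of all promoters. Storage and chaperone genes had a median of −0.58, with the ferritin light chain gene *Ftl1* at 602 and 658 counts (−0.01). Genes of the iron regulatory proteins had −0.55, with *Aco1* at 2296 and 1815 counts (−0.47) and *Ireb2* at 690 and 429 (−0.82). Haem genes had −0.64, and 2 of them were at least 2-fold lower. *Cpox*, an enzyme of haem synthesis, had 1368 and 536 counts (−1.49), and *Hp*, which encodes haptoglobin, had 169 and 84 (−1.14) at 674 bp upstream. *Hmox1*, which breaks down haem, had 538 and 449 (−0.40), and *Hpx*, which encodes hemopexin, had 988 and 892 (−0.28). Genes of mitochondrial iron and iron-sulphur clusters had a median of −0.55.

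**Figure D5:**
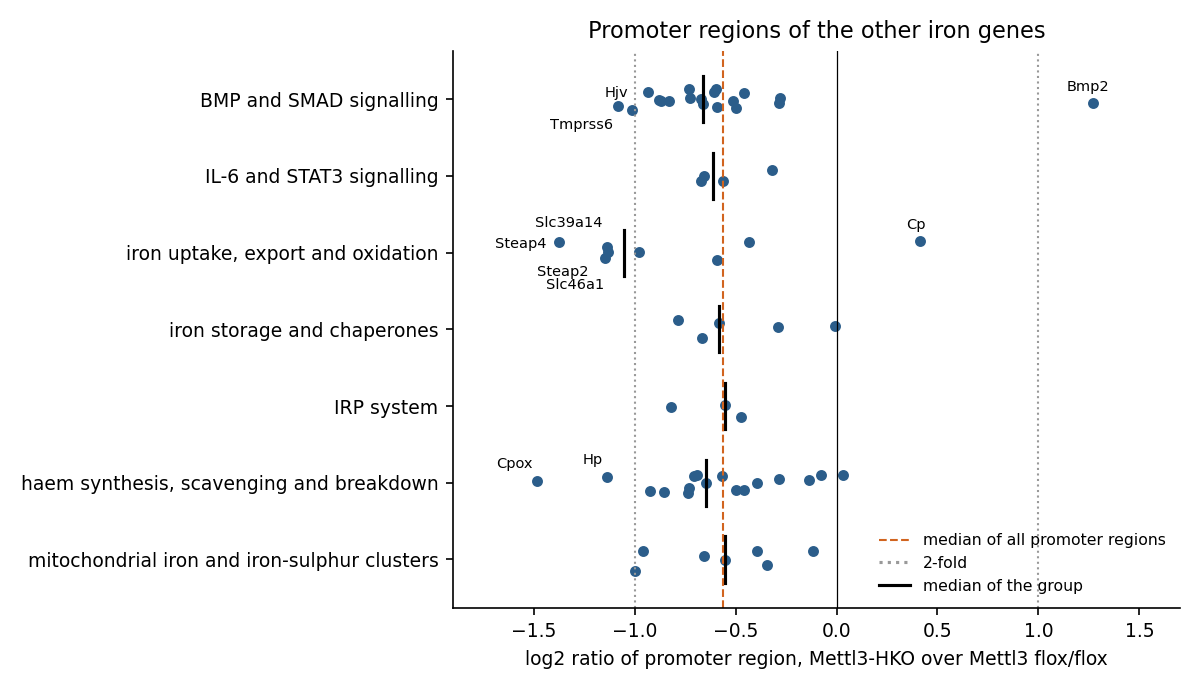
Log2 ratio of the 63 promoter regions of the other iron genes, 1 row per group, with the group median (black), the median of all promoter regions (dashed, −0.56) and 2-fold limits (dotted); points are moved up or down at random to keep them apart. *Bmp2* (1.27) and *Cp* (0.41) lie to the right, and the uptake and export group has the lowest median (−1.05).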

How the data were processed

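One pooled ATAC-seq library of each genotype was analysed. The authors removed adaptors with skewer, aligned reads to GRCm38 with BWA, filtered them for pairing, mapping quality and nuclear chromosomes, and called MACS2 peaks per library with duplicates retained. How reads were assigned to regions, and whether ends were shifted for Tn5, is not given in the sources used here. The deposited table holds each region's raw count, its RPM (the count plus 1 over a library total, recovered here from the values) and a fold enrichment over the genome per base. The authors' log2 fold change was not used.

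Of 74821 rows, 5272 listed a region again and were dropped, leaving 69549. The median region had 85 counts in flox/flox and 81 in HKO. Region starts were converted to count from 1. Ratios and Clopper-Pearson intervals (95%) came from the counts, and a region was called at 2-fold or more, with no test. Upstream stretches came from RefSeq (GRCm38.p6). Older symbols were matched (*Hjv* as *Hfe2*). The genes named are the members, listed genes called at their promoter, others of the wider list fixed by name, and endothelial and macrophage markers. Stellate, cholangiocyte and erythroid markers, 8 genes each, had 3, 6 and 2 promoter regions, and some of these genes were not named in the table. Their median log2 ratios of 0.08, −0.36 and 0.35 came from wide ranges (−2.51 to 1.67, −1.60 to 1.19 and −1.11 to 1.82). Members and lists were chosen with earlier results of these data known. Alternatives concerned scaling, added count, promoter width, fold threshold and weak regions. Scripts were tested on simulated data. Biopython 1.88, matplotlib 3.10.9, pandas 2.3.3, scipy 1.17.1, numpy 2.4.6 and Python 3.11.15 were used.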

Additional observations from a re-analysis of the deposited data

How the results depend on the processing

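The scaling moved the medians most. For the promoter regions of the 10 genes the median log2 ratio of −0.60 became −0.22 when centred on all regions, 0.046 when centred on the strongest 10% of promoter regions and −0.088 when scaled to the reads in regions. For their other regions, −0.03 became 0.34, 0.61 and 0.48 under these 3 scalings, and −0.40 in the upper 50% of signal. For the promoter regions of the other iron genes, −0.64 became −0.27, 0.0018 and −0.13. Promoter regions at least 2-fold higher were 0 on the authors' scale and 2, 3 and 2 under the same 3 scalings, and 2 at a 1.5-fold threshold. Those at least 2-fold lower were 1, and 0 with promoters within 500 bp, 2 within 2000 bp and 6 at 1.5-fold. These shifts follow from adding 0.38, 0.65 or 0.51 to each log2 ratio, or from the changed limits. Of the 37 regions, 6, 9 and 7 changed sign under the 3 scalings, 1 with 10 reads added, and 0 of the 25 left by a filter on signal. No result that was called reversed, but none of the 3 added amounts is large enough to turn a 2-fold ratio. Weak regions rest on few counts. No paired analysis was possible because each group had 1 library.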

Other observations

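The region past the 3′ end of *Hamp* was not alone among the listed and marker genes, but regions at gene ends went both ways. A region of 1404 bp at chr7:105590123-105591526 lay just past the 3′ end of *Hpx*, which encodes the haem carrier hemopexin, and had 240 counts in flox/flox and 922 in HKO, a log2 ratio of 1.80 (1.60 to 2.02). The *Hpx* promoter was at −0.28. The region at the end of *Apob* had 387 and 623 counts (0.55), and the 2 of *Sox9* had 19 and 55 (1.35) and 34 and 59 (0.64). Those of *Apoa1* (2742 and 2494, −0.27), *Serpina1a* (276 and 149, −1.02) and *Socs3* (199 and 71, −1.61) were lower in HKO. Such values were uncommon among strong regions at gene ends: of 1045 regions outside promoters that overlapped the end of their gene or began within 1 kb past it, 13.7% were at least 2-fold higher, and of the 369 in the highest quartile of signal, 12 (3.25%) were. The same limit held for 2.48% of all other regions in that quartile. The comparison was made after the values were seen, and no test was made.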
